A study of Mus musculus with 16 samples.

Results

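TRBD1 and TRBD2 are the pair of diversity (D) segments of the mouse T cell receptor beta locus (TRB). They were followed here through the D call that the deposited contig tables give to each TRB chain, which is TRBD1, TRBD2 or none. The 2 segments are among 36 TRB segment names seen in productive chains, beside 22 V and 12 J names. In each cell the high-confidence productive TRB chain with the most UMIs (unique molecular identifiers, which count molecules) was taken, which gave 5760 cells. Within a library, chains identical in V, J and CDR3 nucleotides were counted once, which gave 3876 TRB clonotypes. TRBD1 was called in 604 clonotypes, TRBD2 in 306 and neither in 2966.

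The cells were tumour infiltrating cells from orthotopic tumours of the mouse hepatoma line Hepa1-6 in the liver of C57BL/6 mice. The 4 groups were KO day 14, CON day 14, KO day 5 and CON day 5, where the day is that of isolation. KO mice had the genotype CD4creMatr3fl/fl and CON mice CD4creMatr3WT/WT, so Cre recombinase under the Cd4 promoter was carried by all groups and only the Matr3 alleles differed. Of 16 samples, the 8 TCR libraries were used, with 2 libraries in each group. Nothing in the labels ties a group's pair of libraries to separate mice, and the p-values reflect the spread among libraries, which may be technical. The tables hold receptor chains alone, so Matr3 itself was not checked, and the ages of the mice are not given in the labels.

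A beta chain is built by joining a D to a J segment and then a V segment to the DJ join, with bases trimmed from the ends and others added between them. The D segment ends up in the middle of CDR3, the loop that meets the peptide. The locus holds TRBD1 followed by the Jβ1 cluster and then TRBD2 followed by the Jβ2 cluster, so deletional joining can place TRBD1 beside either cluster but TRBD2 beside Jβ2 only. TRB genes rearrange in thymocytes before the Cd4 promoter becomes active. In RefSeq genes of the build GRCm38, TRBD1 occupies chr6:41533201-41533212 and TRBD2 chr6:41542163-41542176, which are D segments of 12 and 14 bases. The Jβ1 cluster begins with TRBJ1-1 at chr6:41533864-41533911, and the Jβ2 cluster begins with TRBJ2-1 at chr6:41542754-41542803.

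The segments share most of their letters, as a comparison of their sequences shows. The 12-base and the 14-base run found most often in CDR3s called TRBD1 and TRBD2 are shown here. The first was whole in 49 of 604 clonotypes and the second in 34 of 306, and capitals mark the base at which they first differ (A6T, TRBD1 first, counted from the 5′ end).
TRBD1: gggacAgggggc
TRBD2: gggacTgggggggc

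Whole CDR3s show how the segments sat between V and J bases. These are the most frequent clonotypes of each kind at day 14 and at day 5, with the longest run matching TRBD1 or TRBD2 in capitals.
TRBD1 with TRBJ1-4 and TRBV19, 98 cells, CON day 14 replicate 1: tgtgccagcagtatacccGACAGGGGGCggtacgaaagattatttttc
TRBD1 with TRBJ2-1 and TRBV3, 15 cells, KO day 14 replicate 2: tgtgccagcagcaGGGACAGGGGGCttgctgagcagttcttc
TRBD2 with TRBJ2-3 and TRBV3, 6 cells, CON day 14 replicate 1: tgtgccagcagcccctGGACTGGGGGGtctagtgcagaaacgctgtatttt
No D call with TRBJ1-1 and TRBV13-1, 150 cells, CON day 14 replicate 2: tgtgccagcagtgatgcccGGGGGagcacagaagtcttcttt
TRBD1 with TRBJ1-3 and TRBV1, 3 cells, CON day 5 replicate 2: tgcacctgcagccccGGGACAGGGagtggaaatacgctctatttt
TRBD1 with TRBJ2-7 and TRBV1, 4 cells, KO day 5 replicate 1: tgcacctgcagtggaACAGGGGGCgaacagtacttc
TRBD2 with TRBJ2-7 and TRBV19, 15 cells, CON day 5 replicate 1: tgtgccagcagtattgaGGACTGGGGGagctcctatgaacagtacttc
No D call with TRBJ1-2 and TRBV26, 16 cells, CON day 5 replicate 2: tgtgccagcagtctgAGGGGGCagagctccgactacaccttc
The day 14 clone without a call kept a run of 5 G bases, which both segments hold. The day 5 clone without a call kept 7 bases of the TRBD1 end, so a missing call does not mean that no D segment was joined.

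The libraries held 301 to 652 TRB clonotypes and 462 to 1357 cells with a TRB chain, with 7683 to 31936 UMIs in productive chains of all kinds. The median TRB chain of a clonotype had 9 UMIs with a TRBD1 call, 8 with a TRBD2 call and 10 with none. Of 5908 cell barcodes, 21 were found in 2 or more libraries, with at most 3 shared by a pair. No productive gamma or delta chain and no immunoglobulin contig was present. All chains with a call of the constant segment paired Jβ1 with TRBC1 and Jβ2 with TRBC2 (3862 clonotypes). Among 409 clonotypes of 2 or more cells, the D call was the same in every cell of the clonotype.

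About 3 in 4 clonotypes had no D call in every group, and TRBD1 was called more often than TRBD2 in each of the 8 libraries. Over all clonotypes, the share was 15.6% for TRBD1, 7.89% for TRBD2 and 76.5% for no call. Per library, TRBD1 was called in 15.9% and 15.3% of clonotypes in KO day 14, 12.1% and 14.0% in CON day 14, 15.9% and 16.3% in KO day 5, and 18.4% and 16.4% in CON day 5. Both CON day 14 libraries lie below the other 6. TRBD2 was called in 8.64% and 8% of clonotypes in KO day 14, 6.75% and 7.97% in CON day 14, 7.46% and 8.61% in KO day 5, and 7.79% and 8.44% in CON day 5. For TRBD2 all groups lie close together, with both KO day 14 libraries narrowly above both CON day 14 libraries. The exact (Clopper-Pearson) 95% interval of a single library reached at most 4.63 points above and 3.95 points below its TRBD1 share, and 3.76 and 2.92 points for TRBD2. These intervals cover counting error only.

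**Figure D1:**
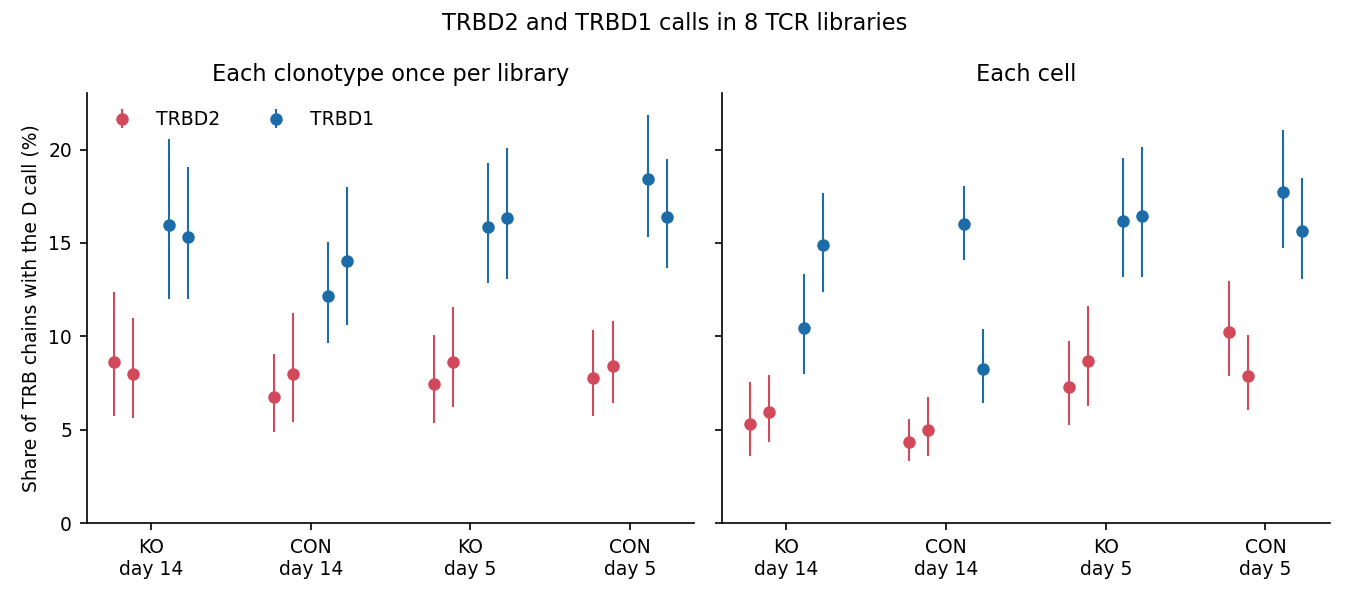
Share of TRB chains with a TRBD2 or a TRBD1 call (y axis, %) in each of the 8 libraries by group (x axis), for clonotypes (left) and cells (right). Points are single libraries and bars their exact 95% binomial intervals. By clonotype TRBD2 lies between 6.75% and 8.64% and TRBD1 between 12.1% and 18.4%. By cell TRBD2 lies between 4.35% and 5.93% at day 14, below all day 5 libraries.

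Matr3 genotype did not move either D segment past the threshold. With edgeR's quasi-likelihood test on all 35 tested V, D and J rows, the background of rows with an adjusted p under 0.05 was 0% in each genotype comparison, namely day 14, day 5, the days combined, and the interaction of genotype with day. Unadjusted p-values under 0.05 numbered 3, 3, 5 and 1 of 35 rows in that order, and none of them belonged to TRBD1, TRBD2 or the row without a D call. DESeq2 also called 0 rows in each, with 3, 0, 4 and 1 unadjusted. At day 14 TRBD1 had a KO against CON log2 fold change of 0.28 with an SE of 0.19 (adjusted p = 0.594, edgeR) and TRBD2 one of 0.20 ± 0.27 (adjusted p = 0.745, edgeR). At day 5 the values were -0.11 ± 0.15 for TRBD1 (adjusted p = 0.878, edgeR) and -0.03 ± 0.23 for TRBD2 (adjusted p = 0.977, edgeR). With the days combined the log2 fold change was 0.08 ± 0.12 for TRBD1 and 0.09 ± 0.18 for TRBD2 (SE; adjusted p = 0.839 and 0.849, edgeR). The change of the KO effect from day to day was 0.38 ± 0.24 for TRBD1 and 0.22 ± 0.35 for TRBD2 (adjusted p = 0.810 and 0.861, edgeR).

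The share of clonotypes with either D call gave the same picture as a single value per library. It was 24.6% and 23.3% in KO day 14, 18.9% and 22.0% in CON day 14, 23.3% and 24.9% in KO day 5, and 26.2% and 24.8% in CON day 5. At day 14 both KO libraries were above both CON libraries, and at day 5 the groups overlapped. KO minus CON was 3.51 points at day 14 (means 23.9% ± 0.913 and 20.4% ± 2.19, SD, n = 2 each) and -1.38 points at day 5 (24.1% ± 1.14 and 25.5% ± 0.953, SD, n = 2 each). Two-sided exact permutation tests gave p = 0.333 at day 14, which is the smallest p that 6 relabelings can give, and 0.667 at day 5. Over both days the difference was 1.06 points (exact permutation p = 0.556). These differences moved with the way of counting. At day 14 KO minus CON was 1.48 points by cell, 0.769 points with the D call remade from the CDR3 as described further on, where the groups overlap, and 1.96 points without CON day 14 replicate 1. At day 5 it was 0.314 points with the remade call, and without KO day 5 replicate 1 or CON day 5 replicate 1 it was -0.576 or -0.711 points. None of these designs can reach 0.05, since the 36 relabelings over both days allow a smallest p of 0.0556.

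Between days, the share of clonotypes with a D call averaged 22.2% ± 2.44 in the 4 day 14 libraries and 24.8% ± 1.17 in the 4 day 5 libraries (SD). The difference of -2.64 points had an exact permutation p of 0.111 (adjusted p = 0.370 over 10 group comparisons). In order of group means, TRBD1 averaged 17.4% in CON day 5, 16.1% in KO day 5, 15.6% in KO day 14 and 13.1% in CON day 14. TRBD2 averaged 8.32% in KO day 14, 8.11% in CON day 5, 8.03% in KO day 5 and 7.36% in CON day 14. Groups of different day and genotype that stand side by side in these orders were not tested against each other. In edgeR's test of day 14 against day 5, 5.71% of the 35 rows were called, namely TRBV3 (log2 fold change 1.18) and TRBV12-2+TRBV13-2 (-0.93), and no D row was among them. For TRBD1 the log2 fold change was -0.24 ± 0.12 (SE; unadjusted p = 0.0463, adjusted p = 0.162, edgeR) and TRBD2 -0.06 ± 0.18 (adjusted p = 0.830, edgeR). In the 2 J lists, 0 of 6 Jβ1 and 0 of 6 Jβ2 segments were called in each of the 5 comparisons, with medians of -0.21 and 0.08 for day 14 against day 5 beside 0.01 over all 35 rows.

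Counting cells in place of clonotypes changed the day comparison of TRBD2. TRBD2 was carried by 5.31% and 5.93% of cells in KO day 14, 4.35% and 5.01% in CON day 14, 7.27% and 8.66% in KO day 5, and 10.2% and 7.89% in CON day 5. All 4 day 14 libraries lie below all 4 day 5 libraries. The log2 fold change by cell was -0.72 (adjusted p = 0.0395, edgeR), where 25.7% of the 35 rows were called on cells. A 15-cell TRBD2 clone made up 2.56% of the cells of CON day 5 replicate 1, the library with the highest share. In CON day 14 replicate 2, a 45-cell clone without a deposited call held TRBD2 by the remade call described further on. Shares by cell are given for the deposited call alone, so this day difference may depend on that call. TRBD1 by cell was 10.4% and 14.9% in KO day 14, 15.99% and 8.27% in CON day 14, 16.2% and 16.5% in KO day 5, and 17.7% and 15.6% in CON day 5. Its log2 fold change by cell was -0.40 (adjusted p = 0.284, edgeR), and the days overlap by the CON day 14 library that holds the 98-cell TRBD1 clone, 7.22% of that library's cells. With either D call the shares of cells averaged 17.6% ± 3.65 over the day 14 libraries and 25.0% ± 2.10 over the day 5 libraries (SD, n = 4 each), which do not overlap (exact permutation p = 0.0556, the smallest possible, adjusted p = 0.556).

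Clone size is what enters a count by cell and not a count by clonotype. At day 14, 20.9% of 1318 clonotypes without a D call held 2 or more cells, against 16.5% of 236 with TRBD1 and 19.4% of 129 with TRBD2. At day 5 these shares were 3.09% of 1648, 3.26% of 368 and 3.95% of 177. At day 14, 27 of 1318 clonotypes without a call held 10 or more cells. With TRBD1 these were 6 of 236 and with TRBD2 0 of 129, where the largest clone had 6 cells. These counts rest on the deposited call. By the remade call described further on, a 45-cell clone without a deposited call, in CON day 14 replicate 2, held TRBD2. Clones of 86, 70 and 42 cells without a deposited call held TRBD1. The most frequent clones without a call had 150, 101 and 96 cells, all of them in CON day 14. Within libraries, 11.97% ± 10.1 of clonotypes without a call and 10.5% ± 8.19 of those with a call held 2 or more cells (SD, n = 8). This difference of 1.504 points was positive in 5 of 8 libraries and did not pass an exact sign-flip permutation test over libraries (p = 0.195, adjusted p = 0.223 over 8 comparisons). It was 0.624 points without KO day 14 replicate 1, where the difference alone was 7.66 points.

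The D call followed the J cluster. Of 1291 Jβ1 clonotypes, 273 had TRBD1 and 2 had TRBD2, a TRBD2 share of 0.155% (exact 95% interval 0.0188% to 0.558%). Of 2585 Jβ2 clonotypes, 331 had TRBD1 and 304 had TRBD2. TRBD1 took 19.5% to 22.6% of clonotypes in each of the 6 Jβ1 segments and 9.94% to 15.2% in each of the 6 Jβ2 segments. Among the Jβ2 segments TRBD2 was called in 14.3% of 847 TRBJ2-7 clonotypes, 12.8% of 352 TRBJ2-3, 11.8% of 431 TRBJ2-5, 11.4% of 429 TRBJ2-1, 7.85% of 344 TRBJ2-4 and 6.04% of 182 TRBJ2-2. The intervals of neighbours in this order overlap, and that of TRBJ2-7 (12% to 16.8%) does not overlap those of TRBJ2-4 (5.24% to 11.2%) and TRBJ2-2 (3.06% to 10.6%).

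**Figure D2:**
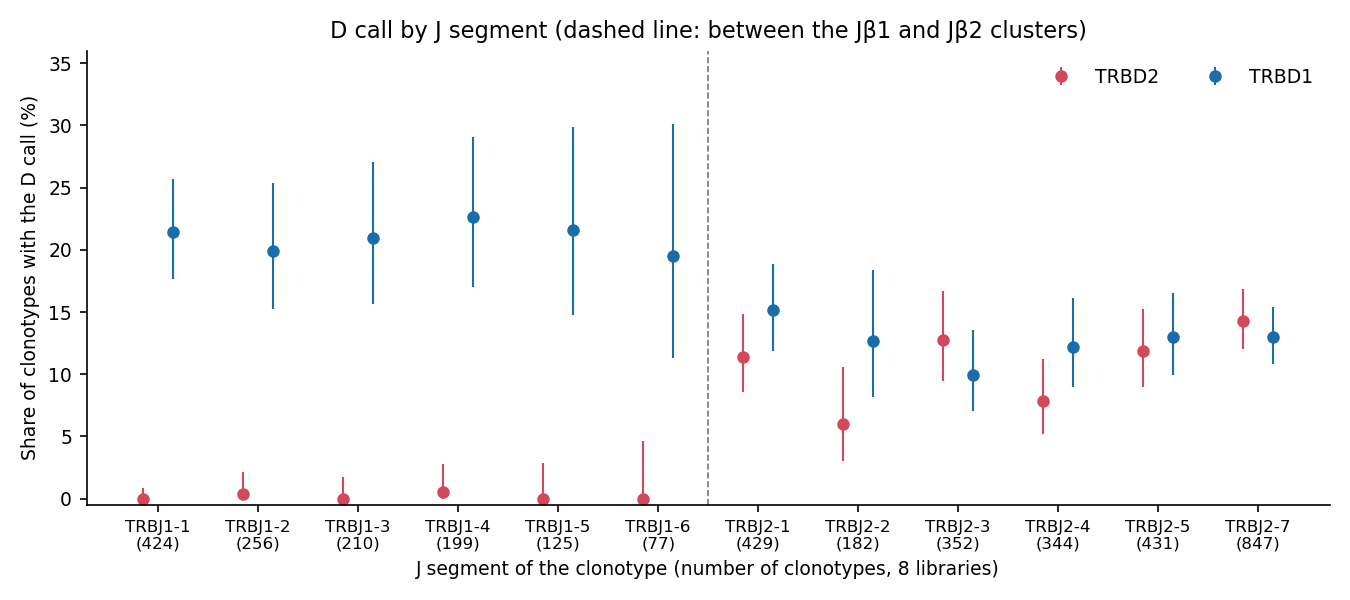
Share of clonotypes with a TRBD2 or a TRBD1 call (y axis, %) for each J segment (x axis, with the number of clonotypes over 8 libraries). Bars are exact 95% binomial intervals. TRBD2 is near 0 in the Jβ1 cluster and between 6.04% and 14.3% in the Jβ2 cluster, while TRBD1 lies between 9.94% and 22.6% throughout.

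The pair of TRBD2 calls joined to Jβ1 is shown because deletional joining would not give them. They were chosen after their values were seen, and capitals mark the run that matches TRBD2.
TRBD2 with TRBJ1-4 and TRBV13-2, CON day 5 replicate 2: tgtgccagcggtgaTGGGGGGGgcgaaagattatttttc
TRBD2 with TRBJ1-2 and TRBV12-2+TRBV13-2, KO day 14 replicate 2: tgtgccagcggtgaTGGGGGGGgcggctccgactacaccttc
Both hold the same 8-base run, a T and 7 G bases, and neither holds the 5 bases before that T in TRBD2. The bases before the run are also the same in both, and whether part of the run came from the V segment was not tested.

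A missing D call was more frequent in Jβ1 than in Jβ2 clonotypes. Jβ1 clonotypes had no call in 78.6% ± 2.65 and Jβ2 clonotypes in 75.4% ± 2.44 (SD over 8 libraries), a difference of 3.21 points that was positive in 8 of 8 libraries and ranged from 0.579 to 5.74 points. An exact sign-flip permutation test over libraries gave p = 0.0078, the smallest 8 libraries can give (adjusted p = 0.0156 over 8 comparisons). By cell the difference was 2.27 points and did not pass (exact permutation, adjusted p = 0.509). With the remade call described further on, the difference was 14.1 points (exact permutation, adjusted p = 0.0137). The remade rule searches for both segments and counts a tie between them as no call. Jβ2 clonotypes can hold either segment, while deletional joining leaves Jβ1 clonotypes the shorter TRBD1 only. The rule thus treats the clusters unequally, and its p-value does not show a separate trait. The part of either calling rule in these differences was not tested. In TRBJ1-4, 22.6% of 199 clonotypes but 46.0% of 324 cells carried TRBD1, of which 98 cells are the clone shown above.

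Among Jβ2 clonotypes with a D call, where either segment could be joined, TRBD2 and TRBD1 were called about equally often. TRBD2 made up 49.1% and 47.1% in KO day 14, 48.8% and 50% in CON day 14, 48.8% and 52.0% in KO day 5, and 42.3% and 47.8% in CON day 5. At day 5 both KO libraries lie above both CON libraries, and at day 14 the groups overlap. KO minus CON was -1.29 points at day 14 (exact permutation p = 0.667) and 5.33 points at day 5 (exact permutation p = 0.333, the smallest possible). By cell these were -6.51 points at day 14 and 0.480 at day 5. With the remade call the day 14 value was -5.59 points. Leaving out a library gave -2.25 to -0.334 points at day 14 and 2.59 (without CON day 5 replicate 1) to 8.07 points (without CON day 5 replicate 2) at day 5, and leaving out iNKT-type cells 9.79 points at day 5. Day 14 minus day 5 was 1.03 points (48.7% ± 1.19 and 47.7% ± 4.03, SD over 4 libraries each, exact permutation p = 0.667).

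How often a D segment was called varied with how much of it remained, and not in the same way for both segments. Each CDR3 was searched for the longest exact run of the 12 TRBD1 or 14 TRBD2 letters shown above, with 9 bases left out at either end of the CDR3. A run of 6 or more bases with no tie counts as a remade D call. Where the longest run was 9 bases of TRBD2, 10.3% of 194 clonotypes had a TRBD2 call, and where it was 9 bases of TRBD1, 84.7% of 202 had a TRBD1 call. With 12 bases, the shares were 59.1% of 110 for TRBD2 and 100% of 49 for TRBD1. TRBD2 calls reached 100% with 13 or 14 bases. With 8 or more bases, 304 of 946 TRBD2 runs and 472 of 622 TRBD1 runs had the matching call. The tool's rule for calling a D segment is not given in the sources used here.

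**Figure D3:**
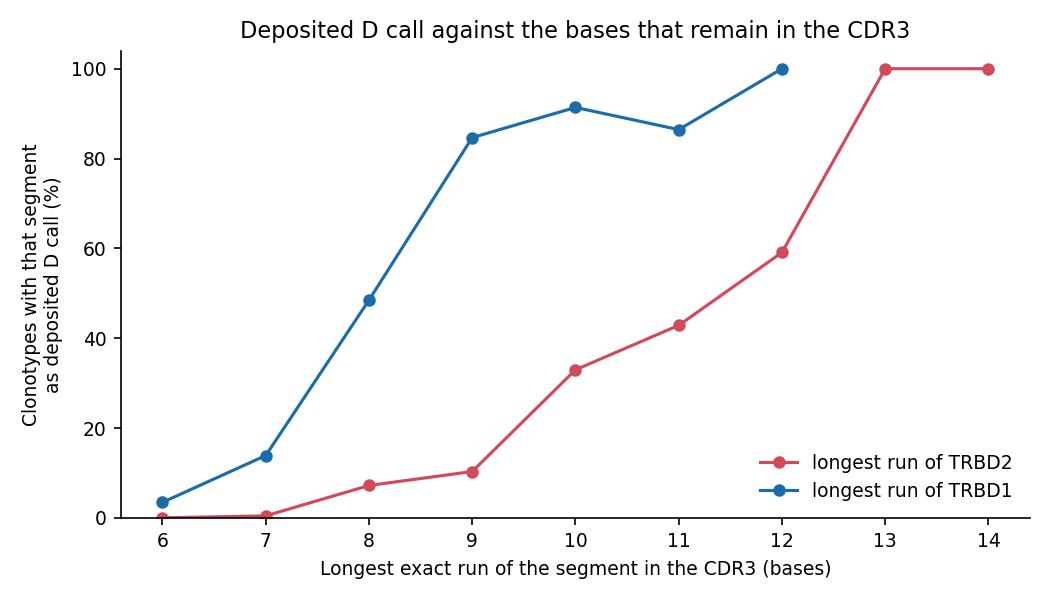
Share of clonotypes with the matching deposited D call (y axis, %) by the length of the longest exact run of TRBD2 or TRBD1 in the CDR3 (x axis, bases; TRBD1 has at most 12). The TRBD2 line lies below the TRBD1 line at every length from 6 to 12 bases, with 10.3% against 84.7% at 9 bases.

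Clonotypes without a deposited call held many such runs. Of 2966, 939 held a longest run from TRBD2 and 781 one from TRBD1, and 1246 held no run of 6 bases or a tie. In Jβ2 clonotypes the remade call gave 1244 TRBD2 and 627 TRBD1, and in Jβ1 clonotypes 64 TRBD2 and 682 TRBD1. The 64 in Jβ1, 4.96% of that cluster, give the level at which short runs read as TRBD2 where deletional joining cannot have placed it. With the remade call TRBD2 made up 66.4% ± 3.06 of D-called Jβ2 clonotypes, against 48.2% ± 2.80 with the deposited call (SD, n = 8 libraries). The remade share was higher in 8 of 8 libraries, by 13.4 to 23.1 points (exact sign-flip permutation p = 0.0078, adjusted p = 0.0156 over 8 comparisons). This comparison was added after the data were seen. It sets fixed calling rules side by side on the same clonotypes, so its p-value concerns the rules and not the use of D segments. The gain was 26.9 points with runs of 8 or more bases and 14.8 points with runs that span the sixth base, where the segments differ.

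**Figure D4:**
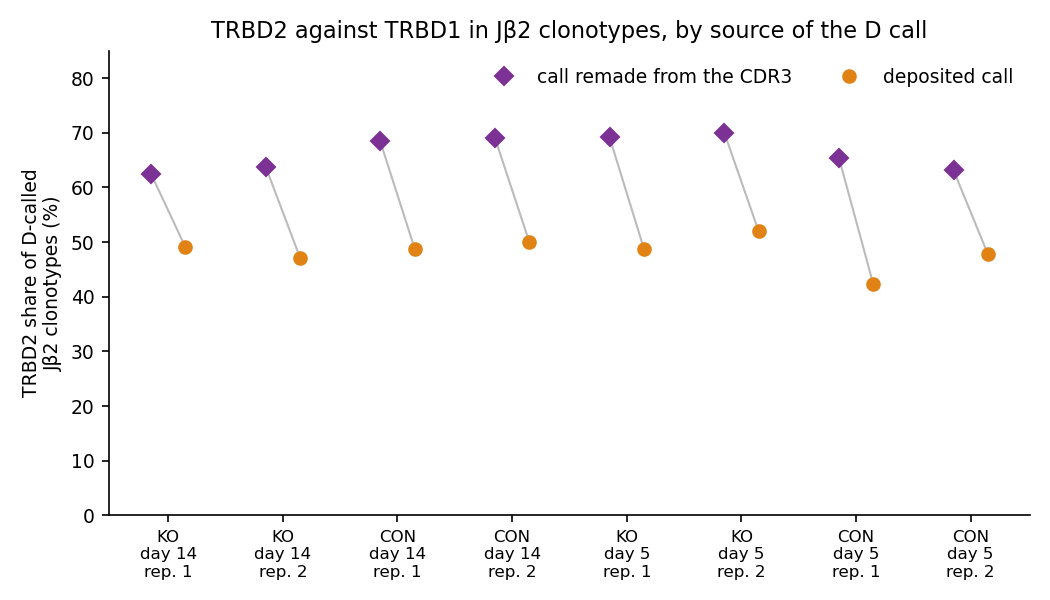
TRBD2 as a share of D-called Jβ2 clonotypes (y axis, %) in each library (x axis, by group and replicate), from the call remade from the CDR3 (diamonds) and from the deposited call (circles), joined by a line. All 8 diamonds lie between 62.5% and 70.0% and all 8 circles between 42.3% and 52.0%.

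Some deposited TRBD1 calls sat on a longer TRBD2 run. Of 331 TRBD1 calls in Jβ2 clonotypes, 64 held a longer run of TRBD2 than of TRBD1, against 0 of 273 in Jβ1 clonotypes, which allows a share of up to 1.10%. In 27 of the 64 the TRBD2 run had 10 or more bases. The longest run was one of TRBD2 in 305 of 306 TRBD2 calls. The longest TRBD2 run in a TRBD1 call had 11 bases, which 10 such clonotypes reached. Of these, a clonotype in which TRBD1 matches 6 bases is shown, with the TRBD2 run in capitals.
TRBD1 call with TRBJ2-5 and TRBV16, CON day 5 replicate 1: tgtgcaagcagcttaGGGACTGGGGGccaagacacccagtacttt
These values bear on the TRBD1 count in Jβ2 clonotypes above, and the part of the calling rule in them was not tested.

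Where the call and the run named the same segment, the run of the 14-base TRBD2 was longer than that of the 12-base TRBD1. The mean run was 11.3 of 14 bases in 305 TRBD2 clonotypes and 9.26 of 12 bases in 528 TRBD1 clonotypes. TRBD2 was whole in 34 clonotypes and TRBD1 in 49. TRBD2 had lost a mean of 1.82 bases at its 5′ end, towards V, and 0.833 at its 3′ end, towards J, and TRBD1 had lost 1.25 and 1.498. These means describe called chains alone, and the call itself needed a longer run of TRBD2. The reading frame of these called chains also differed between the segments. The frame beginning at the third base, which in TRBD2 spells aspartate and tryptophan before glycines, held 48.9% of TRBD2 clonotypes and, with aspartate and arginine, 26.9% of TRBD1 clonotypes. The frame beginning at the first base, which spells glycine and threonine in both, held 27.9% of TRBD2 and 40.3% of TRBD1 clonotypes. With the remade call the third-base frame averaged 40.5% at day 14 and 36.3% at day 5 for TRBD2, and 33.3% and 31.7% for TRBD1. The first-base frame averaged 31.1% and 35.0% for TRBD2, and 33.6% and 39.1% for TRBD1. With the deposited call the third-base share of TRBD2 ran from 30.8% to 65.5% over libraries. The segments were not tested against each other.

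CDR3 length moved with the D call. Clonotypes without a D call had a mean CDR3 of 13.8 residues ± 0.078 and D-called clonotypes 14.5 ± 0.164 (SD over 8 libraries), a difference of -0.724 residues that was negative in 8 of 8 libraries (exact sign-flip permutation p = 0.0078, adjusted p = 0.0156). A D call was present in 38.3% of 462 clonotypes of 16 or more residues and in 8.62% of 615 clonotypes of 12 or fewer. TRBD2 was called in 18.4% of the long and 0.976% of the short loops, and TRBD1 in 19.9% and 7.64%. Among Jβ2 clonotypes, TRBD2 chains had 14.9 residues ± 0.265 and TRBD1 chains 14.2 ± 0.295 (SD, n = 8 libraries). TRBD2 chains were longer in 8 of 8 libraries, by 0.674 residues on average with a range of 0.031 to 1.10 (exact sign-flip permutation p = 0.0078, adjusted p = 0.0156). With the remade call the means were 14.5 ± 0.156 for TRBD2 and 13.8 ± 0.210 for TRBD1. D calls came with long runs of D bases in the CDR3, and TRBD2 calls needed longer runs than TRBD1 calls. TRBD2 also has 14 bases and TRBD1 12. Both length tests compare groups defined partly by those bases, so their p-values do not show a separate trait. The part of the calling rule and of segment length was not tested.

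**Figure D5:**
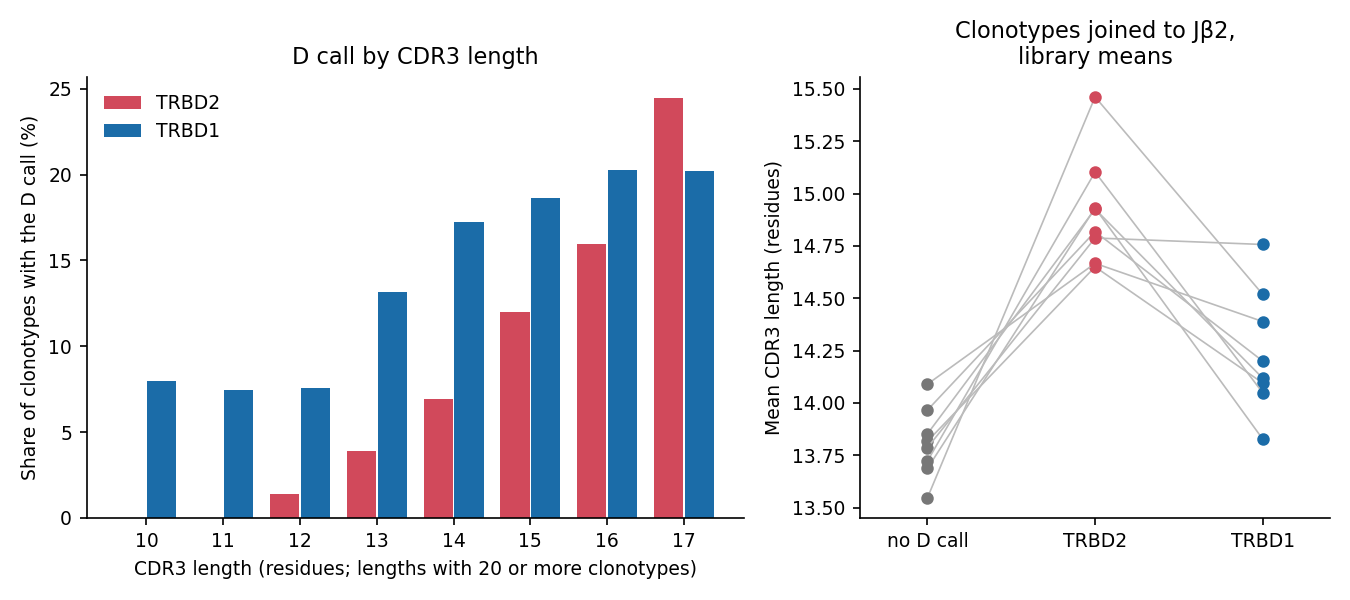
Left, share of clonotypes with a TRBD2 or a TRBD1 call (y axis, %) by CDR3 length (x axis, residues). Right, mean CDR3 length (y axis, residues) of Jβ2 clonotypes with no D call, TRBD2 or TRBD1, where each point is a library and lines join the points of a library. TRBD2 means lie above TRBD1 means in 8 of 8 libraries, and TRBD2 calls are absent at 10 and 11 residues.

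Clonotypes whose cell carried TRAV11 joined to TRAJ18, the alpha chain of invariant natural killer T cells and called iNKT-type here, had a D call more often than others. The name rests on the alpha chain alone. Of 634 iNKT-type clonotypes, 113 had TRBD1, 65 TRBD2 and 456 no call, and of 3242 others 491, 241 and 2510. No D call was given to 69.9% ± 9.29 of iNKT-type and 77.3% ± 2.31 of other clonotypes (SD, n = 8 libraries). The difference of -7.40 points was negative in 7 of 8 libraries (exact sign-flip permutation p = 0.0234, adjusted p = 0.0375 over 8 comparisons). The call is lost when any of the other 7 libraries than CON day 5 replicate 1 is left out, with differences of -8.34 to -4.59 points, and holds without CON day 5 replicate 1 (-8.58 points). In the 4 KO libraries the difference ranged from -27.0 to -4.71 points and in the 4 CON libraries from -2.31 to 0.854, a contrast noticed after the values were seen and not tested. The -27.0 rests on 18 iNKT-type clonotypes of KO day 14 replicate 1.

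The V segments moved with this result. TRBV12-2+TRBV13-2, a joint name of a pair of segments in the deposited tables, made up 50.8% of iNKT-type and 10.6% of other clonotypes. Among its clonotypes no D call was given to 65.5% of 322 iNKT-type (exact 95% interval 60.1% to 70.7%) and 73.6% of 345 others (68.6% to 78.2%). Among all other V segments the shares were 78.5% of 312 iNKT-type (73.5% to 83.0%) and 77.9% of 2897 others (76.3% to 79.4%). Over all libraries pooled, iNKT-type clonotypes had a mean CDR3 of 14.2 residues and others 13.9, and D calls rose with CDR3 length. With the remade call TRBD1 was held by 36.6% of iNKT-type and 33.2% of other clonotypes, and TRBD2 by 34.5% and 33.6%. The parts of V use and CDR3 length in the difference in missing calls were not tested. TRBD2 made up 55.3% ± 13.9 of D-called Jβ2 chains in iNKT-type clonotypes and 46.8% ± 4.43 in others (SD, n = 8), a difference of 8.47 points in 6 of 8 libraries that did not pass (exact sign-flip permutation p = 0.195, adjusted p = 0.223). It was 3.90 points with the remade call and 4.93 points without CON day 14 replicate 1. Day 14 libraries had only 3 to 7 such iNKT-type chains each.

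Non-productive TRB contigs of the same cells carried deposited, but not remade, D calls at about the rates of productive ones. They are contigs not marked productive, and of 463, 167 were not full length and 196 had no CDR3. Some may be incomplete contigs and not failed joins, which was not tested. Counted once per cell clonotype, V, D and J, they numbered 463, with 76 TRBD1, 36 TRBD2 and 351 without a call, and their median was 2 UMIs. Productive clonotypes were counted by V, J and CDR3 nucleotides, so the units compared are not the same. No D call was given to 75.4% ± 6.69 of non-productive contigs and 76.5% ± 2.27 of productive clonotypes (SD, n = 8 libraries), a difference of -1.08 points that was negative in 5 of 8 libraries (exact sign-flip permutation p = 0.688, adjusted p = 0.688). The libraries' differences ranged from -12.3 to 11.6 points, on 45 to 86 non-productive contigs each. TRBD2 was called in 1 of 174 non-productive Jβ1 contigs and made up 49.3% of 71 D-called non-productive Jβ2 contigs (exact 95% interval 37.2% to 61.4%), against 47.9% of 635 productive ones. With the remade call, which only the 267 contigs with a CDR3 allow, no call was 14.2 points more frequent in non-productive contigs (exact permutation, adjusted p = 0.0219).

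The segments named by likeness to the D segments are given as a description over 8 libraries, which share their depth and days, with no test. The shares of clonotypes most like that of TRBD1 were those of TRBJ1-3 (Pearson r 0.78), TRBV13-1 (0.69) and TRBV12-2+TRBV13-2 (0.68). Those most like TRBD2 were TRBJ1-3 (0.57), TRBV12-1 (0.54) and TRBV13-3 (0.42). By V segment, a D call was given to 30.3% of 667 TRBV12-2+TRBV13-2 clonotypes and 16.3% of 153 TRBV12-1 clonotypes. With the remade call these were 70.5% and 68.6%. TRBD2 was called in 0.980% of 102 TRBV26 and 3.02% of 199 TRBV29 clonotypes, and TRBD1 in 18.6% and 15.6% of them. These V segments are named since their TRBD2 shares were the lowest of the tested V segments. With the remade call TRBD2 was held by 21.6% and 17.6% of them, against 33.7% of all clonotypes. The remade TRBD1 shares were 39.2% and 39.7%, against 33.8% of all clonotypes.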

How the data were processed

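T cell receptor contig tables of 8 mouse libraries were used. The submitters' processing notes name the build GRCm38 (mm10) and, with no role for each, Seurat 4.0.0, R 4.1.2, Cell Ranger 3.1.0 and CASAVA 1.8, while the rule of the D call is not given in the sources used here. The deposited UMI counts of each contig are raw whole numbers, and the deposited contig length in bases describes the contig.

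The TRB chain of each cell was its high-confidence productive contig with the most UMIs. Numbers of clonotypes per segment were tested with edgeR 4.0.16 (R 4.3.3; glmQLFit and glmQLFTest, all 8 libraries in each fit, offset the TRB clonotypes of the library, rows of 40 or more clonotypes, Benjamini-Hochberg over 35 rows, threshold 0.05). A clonotype enters a V, a D and a J row. edgeR bounds these p-values by a Poisson test, so each SE was derived from the p-value and its log2 fold change. Library shares were compared by exact permutation (10 comparisons adjusted together) and differences within libraries by exact sign flips (8 together). The germline D letters were read from the CDR3s, with segment lengths and positions from RefSeq. Both kinds of test were tested on simulated data with known answers. Alternatives were TMM factors, DESeq2 1.42.0, no filter, a replicate block, cells, 2 or more UMIs, no possible doublets (173 of 5760 cells with a TRB chain, otherwise kept), no iNKT-type cells, all productive chains, the remade D call and each library left out.

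TRBD1, TRBD2 and no call were named throughout, each J segment by D call, the 3 segments most like either D segment, and the most frequent clonotype of each D call at either day. The members and lists were chosen with earlier results of these data known.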

Additional observations from a re-analysis of the deposited data

How the results depend on the processing

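Of 601 values under alternatives, 564 were counted as unchanged. This means the same direction and side of the threshold or, for numbers of rows called, a similar number. Some of them could not change. Leaving out a library of 1 day repeats the single-day values of the other day, and the replicate block repeats the group differences. The group permutation tests cannot pass 0.05. D-called share, KO minus CON, became 0.314 points at day 5 with the remade call and -0.241 over both days without iNKT-type cells. The TRBD2 share of D-called Jβ2 clonotypes, KO minus CON over both days, became -3.01 points by cell and -0.143 remade. For day 14 minus day 5 it became -4.09 by cell, -1.01 remade and -0.336 to 2.404 with a library left out. The non-productive difference became 14.2 remade and ranged from -2.89 to 0.516 with a library left out (positive without KO day 14 replicate 2). On the log2 scale TRBD2 at day 5 (KO against CON) became 0.00485 with TMM, 0.0550 with DESeq2 and 0.0746 without iNKT-type cells, and ranged from -0.125 to 0.0816 with a library left out. The row without a D call, KO against CON over both days, became 0.0370 with DESeq2, 0.00108 by cell and 0.00276 without iNKT-type cells, where TRBD1 became -0.0319. For day 14 against day 5, that row became -0.0131 with DESeq2 and TRBD2 ranged from -0.116 to 0.00919 with a library left out. None of these log2 values passed, but TRBD2 by cell (-0.72) did. The difference between Jβ1 and Jβ2 clonotypes was 2.27 points by cell and did not pass. The iNKT-type difference was -7.49 without possible doublets (adjusted p = 0.05, exact permutation) and -8.58 to -4.59 with a library left out. Rows called between days numbered 2, but 5 with TMM or DESeq2, 9 by cell, 6 with 2 or more UMIs, 6 with all chains and 2 to 4 with a library left out. At day 5, KO against CON, they numbered 0 to 1 (1 without KO day 5 replicate 1). The causes were not tested.

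No pairing of libraries by replicate number was seen (6 correlations of deviations, -0.069 to 0.020). This does not exclude a pairing, since many rows hold small counts. The replicate block changed no call, with 2 rows called between days and 0 in the other comparisons. The TRBD1 log2 fold change with it was 0.28 at day 14. The iNKT-type comparisons cannot be made without iNKT-type cells, and the remade call was not run on the segment rows.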

Other observations

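The reading frames of TRBD1, in clonotypes whose call and run agreed, were set side by side by day after the values were seen, and no difference between days passed. The frame beginning at the first base (glycine and threonine) held 33.3% ± 1.91 of TRBD1 clonotypes at day 14 and 45.4% ± 7.997 at day 5 (SD, n = 4 libraries each), and the frame beginning at the third base (aspartate and arginine) 34.5% ± 3.28 and 22.5% ± 4.31. Neither pair of days overlapped. Exact permutation gave p = 0.0556 for each, the smallest possible, and an adjusted p of 0.167 over 6 frame comparisons. With the remade call the first-base difference was -5.51 points and the third-base difference 1.61 points, and for the third-base frame the days overlap. For TRBD2 the frame of aspartate and tryptophan held 50.8% ± 14.5 at day 14 and 46.5% ± 7.75 at day 5 (exact permutation p = 0.556).

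TRBD2 clonotypes were found in 2 or more libraries in 6 cases, TRBD1 clonotypes in 8 and clonotypes without a D call in 32, which are 1.96%, 1.32% and 1.08% of each class. Their exact 95% intervals overlap.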
